A study of Mus musculus with 15 samples.

Results

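Oxidative phosphorylation subunits are the proteins that make up the respiratory chain and the ATP synthase in the inner mitochondrial membrane. Their nuclear genes were taken by symbol: the Nduf, Sdh, Uqcr, Cox and Atp5 families, without assembly factors and pseudogenes. The rule found 82 genes among the 19937 single-symbol genes of the array, 34 of them in complex I, 4 in complex II, 8 in complex III, 19 in complex IV and 17 in complex V. Each gene was read from 1 probe set, the one with the highest mean, and 78 of the 82 passed the filter on low signal that left 9969 genes to test.

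The RNA came from cardiomyocytes, the contractile muscle cells, isolated by enzyme digestion from the left ventricles of male C57Bl/6NT mice of 8 to 9 months, and over 90% of the isolated cells were cardiomyocytes, per the labels. Iron-exposed mice had received 0.15 Gy of iron ions with an energy of 1 GeV per nucleon, with 3 arrays each from days 1 and 3 after exposure and 2 each from days 7, 14 and 28. Sham-exposed mice gave 2 arrays on day 1 and 1 array on day 3, and these 3 arrays were the control in every comparison with sham. For days 7, 14 and 28 time and exposure therefore cannot be told apart. The labels do not say whether replicate arrays stand for different mice, so a p-value here covers only variation between arrays, part or all of which may be technical.

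Complex I (NADH dehydrogenase) and complex II (succinate dehydrogenase) pass electrons from fuel oxidation to ubiquinone, complex III passes them to cytochrome c and complex IV (cytochrome c oxidase) to oxygen. Complex V, the ATP synthase, uses the proton gradient that complexes I, III and IV build. The heart depends on this pathway for almost all of its ATP, and its cardiomyocytes are packed with mitochondria. The subunits encoded by the mitochondrial genome are not covered by the rule.

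The subunit genes were among the brightest on the array. Their median level was 10.84 on the log2 scale, against 6.98 over all genes tested, and 74 of the 82 lay in the top 10% of the 19937 genes with a symbol by mean signal. Above 12 on that scale lay 7 subunits, in an array whose highest value was 13.01. The 4 genes that failed the filter are isoforms of complex IV that are known from other tissues. Cox4i2 and Ndufa4l2, forms linked to lung, vessel wall and low oxygen, had means of 5.43 and 4.96, and the testis forms Cox7b2 and Cox8c had 2.87 and 4.78. Another testis form, Cox6b2, passed narrowly at 5.63, and its general counterpart Cox6b1 had 11.67 on its own probe set. All 10 cardiomyocyte markers, the myosin gene Myh6 and the troponin gene Tnnt2 among them, passed the filter, and their mean score varied between -0.11 and 0.075 across the 15 arrays. The SD within groups had a median of 0.110 over the 78 subunits tested and 0.137 over all genes tested.

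The subunits of all 5 complexes tended to move together from array to array, and this was the main pattern in their levels. Each gene was set against its own mean over the 15 arrays, and the median of these deviations was taken over the 78 subunits. It was -0.14 in the sham day 3 array, where 73 of 78 subunits lay below their own mean, and within 0.005 of 0 in both sham day 1 arrays (-0.0027 and 0.0049). The day 1 iron arrays had -0.059, -0.0063 and 0.081. On day 3 the medians were 0.065, 0.041 and 0.058. The day 7 arrays opposed each other, with -0.14 and 0.12, and 7 against 73 of 78 subunits above their own mean. Day 14 gave 0.14 and 0.0035, and day 28 gave -0.093 and -0.075. Days 3 and 28 were thus even between arrays, whereas the 2 arrays of day 7 spanned nearly the whole range of the series. The opposition on day 7 remained with quantile normalization (-0.11 and 0.096) and with median centring (-0.18 and 0.11).

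**Figure D1:**
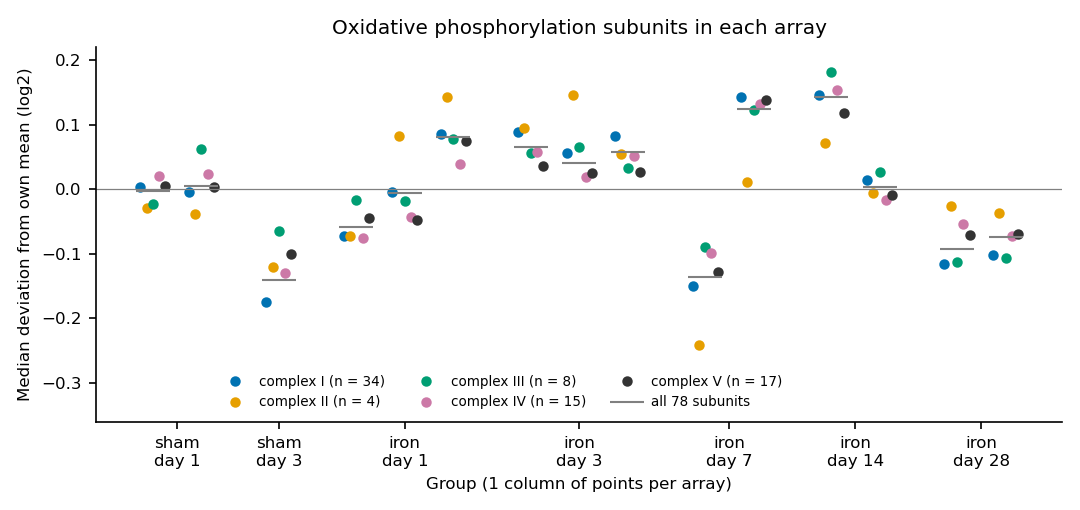
Median deviation of the subunits from their own means over 15 arrays (y axis, log2) in each array, grouped by exposure and day (x axis). Points are the 5 complexes and grey bars all 78 subunits. The complexes stay close together in most arrays, the sham day 3 array and the first day 7 array are low (-0.14 each), and the second day 7 array and the first day 14 array are high (0.12 and 0.14).

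Of the other mitochondrial lists, the ribosomal and assembly genes were low and high in many of the same arrays. Those of the citric acid cycle and fatty acid oxidation were so in fewer of the arrays given here. The 77 genes of the mitochondrial ribosome, which translates the mitochondrially encoded subunits, had a median deviation of -0.22 in the sham day 3 array, -0.19 and 0.14 in the day 7 arrays and -0.22 and -0.23 on day 28. The 40 assembly factors gave -0.19, then -0.20 and 0.090, then -0.22 and -0.22 in those arrays. In the second day 1 iron array the ribosomal and assembly genes had 0.11 and 0.16, where the subunits had -0.0063. The 12 citric acid cycle genes had -0.023 in the sham day 3 array, -0.21 and 0.0076 on day 7 and -0.067 in the first day 14 array, where the subunits had 0.14. The 13 fatty acid oxidation genes had -0.031, then -0.26 and 0.021, then -0.033 in those arrays. Over all 9969 genes these medians stayed between -0.063 and 0.036. Marker scores of other cells differed between the same arrays. The lung epithelium score was 1.93 in the sham day 3 array and at most 0.71 elsewhere, the lymphocyte score was 1.00 there and 1.85 and 1.72 on day 28, and the macrophage score was 1.39 and 0.83 in the day 7 arrays. On day 3 the fibroblast score was -0.80 to -0.59, against 0.62 to 0.73 in the sham arrays. The part of these cells in the subunit levels was not tested. In RNA from many cells, fewer cells of a type and less RNA per cell cannot be told apart.

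Within the control the sham day 3 array was low for most subunits. Its difference from the sham day 1 arrays had a median of -0.15 over the subunits, below 0 in 72 of 78, and -0.041 over all genes. No subunit passed the test of that difference (limma, 7 of 78 at an unadjusted p under 0.05, against 9.88% of all genes), and over all genes 0.381% did. The subunit medians against sham are therefore given with and without this array.

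On day 1 no subunit passed the test against sham, and 0.0602% of all genes did (limma, Benjamini-Hochberg adjusted p under 0.05 over 9969 genes, the rule used for each call here). No subunit reached an unadjusted p under 0.05 either, where 11% of all genes did. The median difference was 0.061, against 0.028 over all genes, and 66 of 78 subunits lay above 0, where 58.4% of all genes did. Without the sham day 3 array the median was 0.0026, with 39 above and 39 below 0. All 78 had a 95% interval inside a 1.5-fold change in either direction. The 4 with the smallest p were Uqcrfs1, the Rieske iron-sulfur protein of complex III (0.18, adjusted p = 0.460 in limma), Sdhd, a membrane anchor of complex II (0.24), and the complex I subunits Ndufs6 (0.22) and Ndufb3 (0.21).

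Day 3 held the largest number of subunits past the threshold in any comparison with sham: 3 of 78 were higher and none lower. Over all genes 8.03% were called, 2.79% higher and 5.25% lower, and among genes in the top 10% of signal 6.12% were called. The share of subunits called was 3.85%, under both of these backgrounds for calls in either direction. All 3 calls were higher, and the share was slightly above the 2.79% of all genes called higher. Their median was 0.086 (0.037 over all genes), 72 of 78 were above 0 against 57.1% of all genes, and in 21 the iron arrays all lay above the sham arrays, where 19.8% of all genes did so. Without the sham day 3 array the median was 0.041 and 61 of 78 were above 0. By complex the medians were 0.13 for I, 0.15 for II, 0.052 for III, 0.044 for IV and 0.070 for V. The 95% interval stayed inside 1.5-fold for 70 subunits, and for the other 8, Uqcr10 and Ndufs6 among them, it reached past it.

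Ndufs6, an accessory subunit of complex I that carries a zinc site and is needed to complete the enzyme, had 9.94, 10.06 and 9.73 in the sham arrays and 10.24, 10.33 and 10.40 in the day 3 iron arrays. The 2 sets did not overlap. The difference was 0.41 (SE 0.110, adjusted p = 0.0375), a 1.33-fold higher signal. Uqcr10, a small membrane subunit of complex III, had 9.15, 9.31 and 8.82 in sham and 9.53, 9.51 and 9.59 on day 3. It was higher by 0.45 (SE 0.124, adjusted p = 0.0423), or 1.37-fold, again without overlap. Ndufa3, a small accessory subunit of the membrane arm of complex I, had 11.04, 10.94 and 10.81 in sham and 11.09, 11.29 and 11.34 on day 3. The difference was 0.31 (SE 0.0872, adjusted p = 0.0450), or 1.24-fold. Ndufa9, another accessory subunit of complex I, came next at 0.30 (adjusted p = 0.0527).

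**Figure D2:**
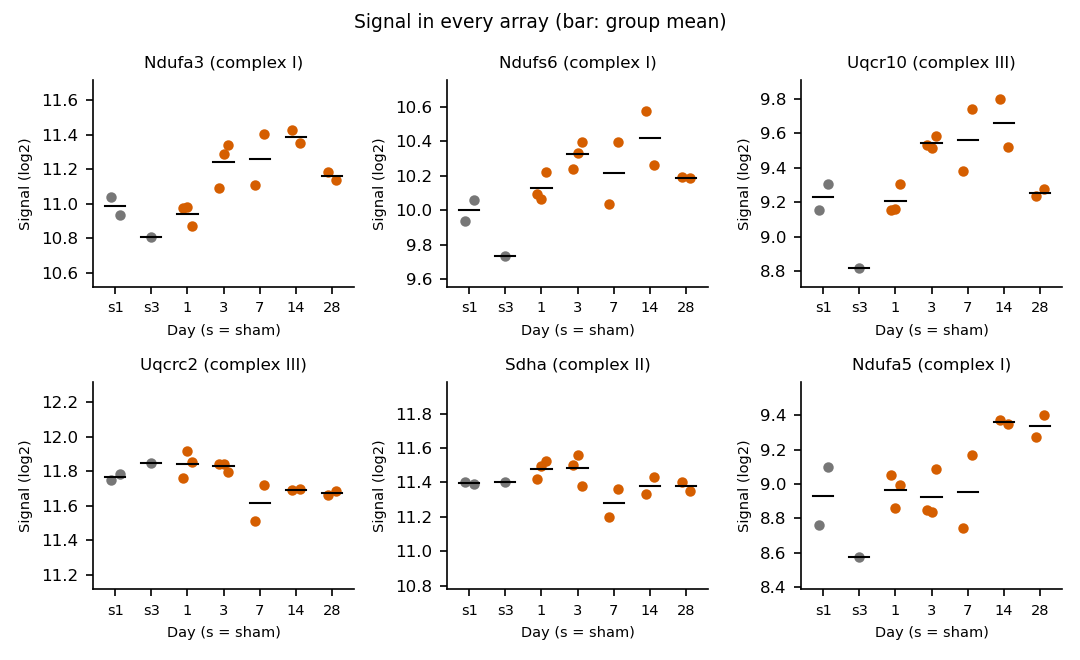
Signal (y axis, log2, panels span the same 1.2 units) of 6 subunits in every array by day (x axis, s for sham). Grey points are sham arrays, orange points iron arrays and bars group means; Ndufa3, Ndufs6 and Uqcr10 lie higher on day 3 than in sham, Uqcrc2 lies lower from day 7 on, and the 2 day 7 arrays differ in most panels.

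In all 3 genes the sham day 3 array was the lowest sham value. Without it the differences were 0.32 for Ndufs6, 0.31 for Uqcr10 and 0.25 for Ndufa3 (adjusted p = 0.135, 0.144 and 0.155), and no subunit passed. None passed on day 3 either with median centring, or without the first sham day 1 array, the second or the third iron day 3 array, or either iron day 28 array. Without the second iron day 1 array or the first iron day 3 array 1 subunit passed, and without either iron day 7 array 5 passed.

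The promoters of the 3 genes are shown because each gene passed the threshold on day 3. The sequences are the 250 bases before the RefSeq start site in GRCm38.p6. They lie at chr13:73328483-73328732 (minus strand) for Ndufs6, chr11:4704345-4704594 (minus strand) for Uqcr10 and chr7:3617123-3617372 (plus strand) for Ndufa3. Capitals mark a match to GCGCANGCG, the core of the site of NRF1 (nuclear respiratory factor 1), on either strand. Ndufs6 and Uqcr10 were taken by rule and Ndufa3 was added after its values were seen.
Ndufs6: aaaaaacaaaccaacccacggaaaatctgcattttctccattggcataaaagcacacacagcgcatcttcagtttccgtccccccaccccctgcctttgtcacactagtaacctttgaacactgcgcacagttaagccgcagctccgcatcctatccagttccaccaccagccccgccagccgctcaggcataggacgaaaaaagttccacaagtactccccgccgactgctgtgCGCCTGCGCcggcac
Uqcr10: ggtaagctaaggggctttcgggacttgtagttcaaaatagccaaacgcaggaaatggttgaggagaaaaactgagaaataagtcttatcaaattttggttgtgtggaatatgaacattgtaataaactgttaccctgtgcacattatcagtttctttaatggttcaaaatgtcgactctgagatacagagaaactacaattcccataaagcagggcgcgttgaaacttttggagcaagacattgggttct
Ndufa3: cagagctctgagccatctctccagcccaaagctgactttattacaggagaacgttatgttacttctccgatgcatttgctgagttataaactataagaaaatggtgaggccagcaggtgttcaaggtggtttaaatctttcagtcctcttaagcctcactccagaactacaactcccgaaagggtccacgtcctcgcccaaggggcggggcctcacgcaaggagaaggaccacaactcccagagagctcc
The NRF1 letters occur once in the Ndufs6 window, 15 bases before the start site on the opposite strand, and not in the windows of Uqcr10 and Ndufa3.

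On day 7 no subunit passed, against 4.6% of all genes (limma, 7 of 78 at an unadjusted p under 0.05 where 24% of all genes were), and 49 of 78 were above 0 where 43.5% of all genes were. The median difference of 0.035 (-0.034 over all genes) came from the mean of 2 arrays that disagreed. Without the sham day 3 array it turned to -0.017, with 35 of 78 above 0, and its sign held in 21 of 26 alternatives. It was 0.16 without the first day 7 array, with 75 of 78 subunits above 0, and -0.086 without the second, with 60 below 0 and Uqcrc2 past the threshold (-0.28). Uqcr10 had 9.38 and 9.74 on day 7, both above all 3 sham values, a difference of 0.47 (adjusted p = 0.0694). Ndufa3, with 11.11 and 11.41, also lay above all sham values by 0.33 (adjusted p = 0.0694). Uqcrc2, a core protein of complex III, and Ndufs1, the largest iron-sulfur subunit of complex I, had -0.17 and -0.29 (adjusted p = 0.131 and 0.132).

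On day 14 Ndufa3 was the 1 subunit of 78 past the threshold, and 0.833% of all genes were (0.592% higher). Its arrays had 11.43 and 11.35, above every sham value, a difference of 0.46 (SE 0.0975, adjusted p = 0.0464), or 1.38-fold. This day had the highest median over the subunits, 0.12 against -0.020 over all genes, with 69 of 78 above 0, where 45.9% of all genes were. In 28 subunits both day 14 arrays lay above all sham arrays, where 13.7% of all genes did. Without the sham day 3 array the median was 0.064 and 57 of 78 were above 0. Differences over 0.5 were seen in 5: Ndufa1 (0.63), Uqcr10 (0.57), Atp5l (0.56), Ndufa5 (0.55) and Ndufs6 (0.51). Ndufa1, Ndufa5 and Ndufs6 are accessory subunits of complex I and Atp5l is subunit g of the ATP synthase, which helps to hold its dimers. None of the 5 passed, and the smallest adjusted p among them was 0.0619 for Ndufa1.

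The level on day 14 rested largely on 1 array. Without the first day 14 array the median was 0.037, and without the second it was 0.18. The call of Ndufa3 was lost with either of them left out, and also without the second or the third iron array of day 1 or day 3, either day 28 array or any 1 sham array (adjusted p = 0.0521 to 0.336 in limma over these). With either day 7 array left out 3 subunits passed, and without the first iron day 1 array 2 did.

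By day 28 most subunits had differences slightly below 0. The median was -0.031 (0.019 over all genes), 27 of 78 were above 0 (53.6% of all genes), and none passed, where 2% of all genes did (limma, 6 of 78 at an unadjusted p under 0.05 against 19.3% of all genes). In 24 subunits both arrays lay below all sham arrays, where 19.4% of all genes did, and in 9 above, against 25.7%. Without the sham day 3 array the median was -0.093, 60 were below 0 and Uqcrh passed (-0.35, adjusted p = 0.0378), and without the second sham day 1 array Ndufa5 passed (0.66). The 2 largest differences, in Atp5l and Ndufa5, went the other way. On the probe set used, Atp5l had 10.59 in both arrays, against 9.99, 10.24 and 9.76 in sham (0.59, adjusted p = 0.122). Its other probe sets gave 0.73, 0.41, 0.17 and -0.068. Ndufa5 had 9.27 and 9.40, against 8.76, 9.10 and 8.58 (0.52, adjusted p = 0.0915). Uqcrh, the hinge protein of complex III that helps cytochrome c to bind, had 10.82 and 10.88, below sham values of 11.18, 11.22 and 11.01 (-0.29, adjusted p = 0.104). Median centring shifted the median of all genes on day 28 from 0.019 to -0.094, and that of the subunits to -0.14.

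Over the 78 subunits the differences from sham ran from -0.11 to 0.24 on day 1, -0.11 to 0.45 on day 3, -0.29 to 0.47 on day 7, -0.099 to 0.63 on day 14 and -0.31 to 0.59 on day 28. The medians of the complexes differed within a day, and on day 7 that of complex II was below 0 and the others above. Differences between complexes were not tested. On day 1 their medians, from I to V, were 0.072, 0.10, 0.036, 0.012 and 0.055, and on day 7 they were 0.060, -0.052, 0.0023, 0.036 and 0.053. Day 14 gave 0.12, 0.085, 0.12, 0.12 and 0.072, and day 28 gave -0.019, -0.025, -0.096, -0.085 and -0.018. Complex I, with 34 subunits, held the widest range of single values on day 14, from -0.082 to 0.63, and complex II, with 4, the narrowest on day 28, from -0.029 to 0.12.

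**Figure D3:**
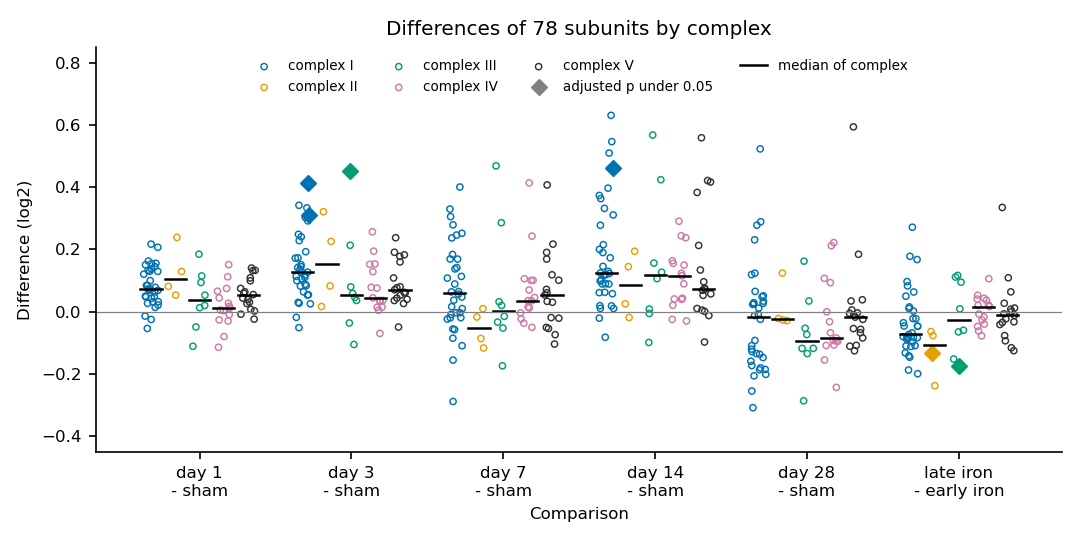
Difference of each of the 78 subunits tested (y axis, log2) in 5 comparisons with sham and between late and early iron days (x axis), by complex. Open circles are subunits, diamonds those with an adjusted p under 0.05 and black bars the medians of each complex, which lie between -0.11 and 0.15.

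Averaged over the 5 iron days, no subunit passed the test against sham, where 1.13% of all genes did (limma, 11 of 78 subunits at an unadjusted p under 0.05 against 15.9% of all genes). The median was 0.047 (0.00059 over all genes) and 62 of 78 were above 0 (50.2% of all genes), but without the sham day 3 array it was -0.0012 with 38 above 0. The interval stayed inside 1.5-fold for 77 of the 78, Atp5l being the exception (0.39, from 0.095 to 0.68). Complexes I to V had medians of 0.059, 0.066, 0.017, 0.030 and 0.029. Ndufs6, Ndufa3, Uqcr10 and Ndufa1 had the smallest p, with differences of 0.34, 0.27, 0.35 and 0.32 and adjusted p = 0.0846, 0.0898, 0.112 and 0.159. These comparisons share the sham arrays, so the values of a gene on different days are not independent.

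The late iron days (7, 14 and 28) were also set against the early ones (1 and 3), a contrast that uses no sham array. Over all genes 22% were called, and among the brightest 10% of genes 25.9% were. Of the subunits 2 of 78 were called, both lower in the late arrays, where 11.7% of all genes were lower. Uqcrc2 had 11.76, 11.92, 11.85, 11.84, 11.84 and 11.80 in the early arrays and 11.51, 11.72, 11.69, 11.70, 11.66 and 11.68 in the late ones. Every late array was below every early one, which held for 1 of 78 subunits and 2.57% of all genes. The difference was -0.17 (SE 0.0414, adjusted p = 0.0108), which is a 1.13-fold lower signal, and it passed in all 24 alternatives run. Sdha, the flavoprotein of complex II that oxidizes succinate, had 11.42, 11.49, 11.52, 11.50, 11.56 and 11.38 early and 11.20, 11.36, 11.33, 11.43, 11.40 and 11.35 late, which overlap. Its difference of -0.13 (SE 0.0429, adjusted p = 0.0398), 1.10-fold, passed in 10 of 24 alternatives.
The Sdha promoter, at chr13:74350241-74350490 (minus strand, GRCm38.p6), is shown with its 3 matches to the NRF1 letters in capitals. Their first bases lie 98, 55 and 10 bases before the start site. This promoter was not taken by rule, and other windows, those of Cox6a1 and Uqcrc1 among them, also held several matches. RefSeq's table was not matched for Uqcrc2.
Sdha: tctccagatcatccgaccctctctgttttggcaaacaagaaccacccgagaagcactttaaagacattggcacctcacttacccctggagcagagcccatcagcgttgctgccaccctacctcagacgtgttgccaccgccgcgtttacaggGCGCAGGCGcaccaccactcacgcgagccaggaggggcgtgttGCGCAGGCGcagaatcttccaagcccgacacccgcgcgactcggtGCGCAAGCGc

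Atp5d, the delta subunit of the ATP synthase, and Sdhd followed at -0.13 and -0.24 (adjusted p = 0.0532 and 0.0584), and Ndufa3 at 0.18 (adjusted p = 0.0545). The medians by complex were -0.071 for I, -0.11 for II, -0.025 for III, 0.016 for IV and -0.012 for V. All 4 subunits of complex II were below 0. The count rested on single arrays: 13 subunits, all lower, passed without the second day 7 array and 9 without the first day 1 array. Without the third iron day 3 array or the sham day 3 array 4 passed, and 1 passed without the second or the third day 1, the first or the second iron day 3, either day 28 or the first sham day 1 array. The share of all genes called is not given for these or other fits with an array left out. Their counts therefore have no background. Of the late arrays, the first on day 7 held the lowest value of Uqcrc2 and of Sdha.

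The subunits of a list of catalytic, redox and core proteins, called the core here, had the same sign in this contrast. The core list holds the core proteins of the electron-transfer arm of complex I, the flavoprotein and iron-sulfur protein of complex II, the Rieske and core proteins of complex III and the alpha, beta and gamma subunits of the ATP synthase, and 14 of its members were on the array as single genes. All 14 had differences below 0, 2 of them called, with a median of -0.10 and a range from -0.19 (Ndufs1) to -0.033 (Atp5b). The other 64 subunits had a median of -0.015 with 29 above 0, and 42.3% of all genes were above 0. The 2 subunits called are both on this list, Sdha as the flavoprotein of complex II and Uqcrc2 as a core protein of complex III. With the first day 7 array left out the core had a median of -0.068 with 13 of 14 below 0, and with the second left out -0.14 with 7 called. The core and the others were not tested against each other. Markers of other cells moved in the same contrast: 7 of 8 macrophage genes were higher in the late arrays (median 0.93), as were 5 of 7 fibroblast genes (0.57), 2 of 8 endothelial genes (0.47) and the 1 lymphocyte gene tested (0.83), where 10.3% of all genes were higher. Of the 10 cardiomyocyte markers 2 were lower and 9 lay below 0 (median -0.048). Their part in the subunit differences was not tested.

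**Figure D4:**
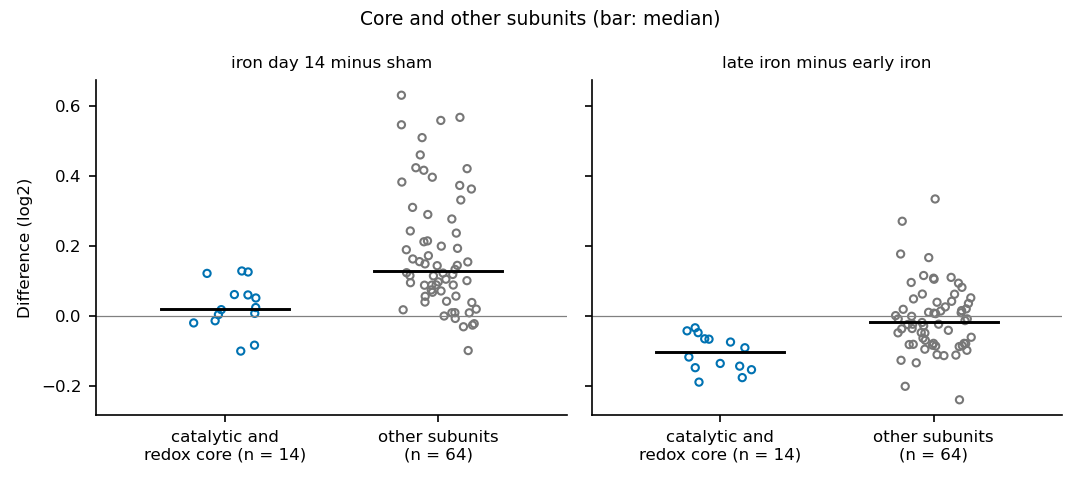
Differences (y axis, log2) of the 14 core subunits and the 64 others (x axis) on day 14 against sham and between late and early iron days. Circles are subunits and bars medians: 0.022 and 0.13 in the left panel, -0.10 and -0.015 in the right, where every core subunit lies below 0.

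Against sham the core was all above 0 on day 1 (median 0.067) and had 13 of 14 above 0 on day 3 (0.061), 12 of 14 below 0 on day 7 (-0.055) and 12 of 14 below 0 on day 28 (-0.026). On day 14 its median was 0.022 beside 0.13 for the other 64, and all 5 differences over 0.5 were outside it. Core subunits had lower SDs between arrays of a group, with a median SD of 0.0858 against 0.118. Atp5b, the catalytic beta subunit of the ATP synthase, kept within 0.040 of sham on each day.

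An F test for any difference among the 5 iron days called 1 subunit of 78, Ndufa3 (adjusted p = 0.0354), where 19.2% of all genes were called. Its iron arrays ran from 10.87 to 10.98 on day 1, 11.09 to 11.34 on day 3, 11.11 and 11.41 on day 7, 11.35 and 11.43 on day 14, and 11.13 and 11.18 on day 28. The levels of day 1 were below all later ones, day 14 was the highest by mean, and days 3, 7 and 28 overlapped. This p passed in 12 of 24 alternatives. Uqcrc2, Uqcr10 and Ndufa5 came next (adjusted p = 0.0587, 0.0750 and 0.0845), followed by Ndufs1, Ndufs8, Cox7b and Cox7a1 (0.0920 to 0.107). Without the second day 7 array 8 subunits passed, without the second day 14 array 4, without the first day 1 array or the sham day 3 array 2, and none without the second or the third array of day 1 or day 3, the first day 14 array or either day 28 array.

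Heart-type and general isoforms of complex IV were compared because muscle uses its own forms of 3 small subunits. None of the 6 was called in any comparison, and differences between the forms were not tested. Cox6a2, the heart form of subunit 6a, had 12.06 ± 0.048 (SD, n = 3) in sham and 12.21 ± 0.060 (SD, n = 3) on day 3, and its lowest day 3 array lay above the highest sham array. It had a difference of 0.15 (adjusted p = 0.0700), and the general form Cox6a1 had -0.070. Cox7a1 and Cox7a2 had 0.044 and 0.075 on day 3, and Cox8b and Cox8a 0.15 and 0.19. On day 28 the values were 0.11 for Cox6a2 and -0.24 for Cox6a1, -0.085 and -0.093 for Cox7a1 and Cox7a2, and -0.095 and 0.093 for Cox8b and Cox8a. The heart forms had lower within-group SDs (0.0515, 0.0703 and 0.0950) than the general ones (0.165, 0.155 and 0.117). They were also brighter, with means of 12.14, 11.83 and 12.04 against 8.39, 10.51 and 10.88. Low SDs were not particular to them. The bright general subunits Cox7b, Cox6c, Cox5b and Cox6b1 had 0.0319, 0.0675, 0.0749 and 0.0904.

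**Figure D5:**
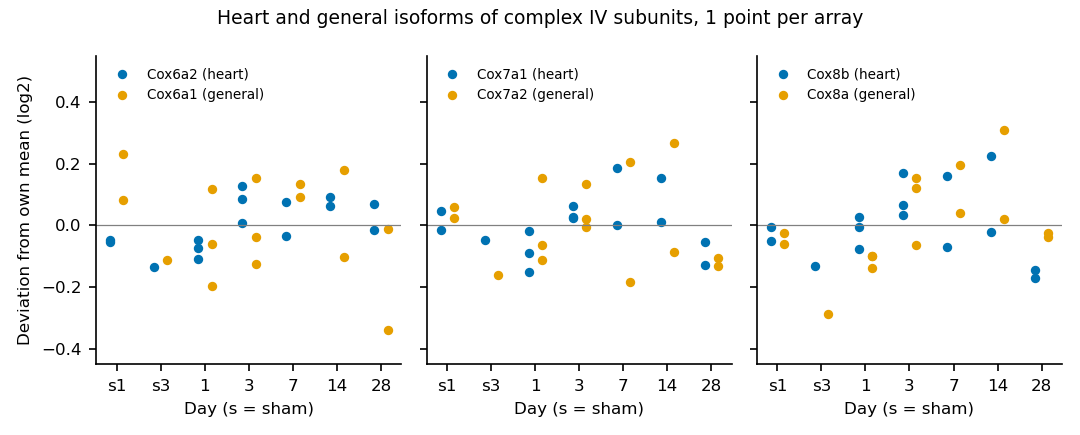
Deviation of each isoform from its own mean over 15 arrays (y axis, log2) by day (x axis, s for sham), 1 point per array, with heart forms in blue and general forms in orange. Most points lie within 0.2 of 0, and Cox6a1 on day 28 and Cox8a in sham day 3 and day 14 lie farthest out.

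Cox4i1, the general form of subunit 4, differed from sham by 0.014 on day 3 and 0.15 on day 14, and Ndufa4, now placed in complex IV, by 0.13 and 0.24. The 3 genes Atp5g1, Atp5g2 and Atp5g3 encode the same subunit c of the ATP synthase rotor, with different import signals. On day 3 they had 0.077, 0.061 and 0.16 and on day 14 0.072, 0.21 and 0.13. Cox7b had the smallest spread of all subunits (SD 0.0319).

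A second probe set can give another answer. For 17 subunits the array held more than 1 probe set, 23 beside those used. Against sham these had the opposite sign to the one used in 6 cases on day 1, 3 on day 3 and 5 on day 7. On days 14 and 28 there were 4 and 6 such cases, with 7 over all iron days and 3 in late against early iron. The largest gap was in Atp5g1. Its dimmer probe set (mean 6.94) gave 0.87 on day 3 and 0.79 on day 14. On day 3 it passed the threshold (limma over all probe sets above the filter, adjusted p = 0.0201). The brighter one (mean 12.37), which was used, gave 0.077 and 0.072. The count of subunits called on day 3 thus depends on the choice of probe set. Atp5l had 5 probe sets, and the one used gave 0.33 in late against early iron. Those with means of 8.57 and 9.55 passed as higher there, by 0.28 and 0.31 (limma over all probe sets, adjusted p = 0.0449 and 0.0390). Those with means of 9.04 and 5.82 gave 0.37 and 0.12 and did not pass. None of Ndufs6, Uqcr10, Ndufa3, Uqcrc2 and Sdha had a second probe set.

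Other genes of the pathway and of its control were followed by lists. Assembly factors insert cofactors and join subunits, and 11 of 40 were lower in late than early iron (median -0.18), where 11.7% of all genes were lower. Among them were Acad9 (-0.31, adjusted p = 0.0108), Foxred1 (-0.30), Timmdc1 (-0.26) and Lyrm7 (-0.36). None was called against sham on any day, and their medians were 0.15 on day 1, 0.13 on day 3 and -0.20 on day 28. Of the 77 mitochondrial ribosomal proteins 2 were higher on day 3, a share near the 2.79% of all genes called higher that day, Mrps11 (0.50, adjusted p = 0.0153) and Mrps21 (0.83, adjusted p = 0.0351), and 6 were lower in late iron (median -0.13). In the citric acid cycle 4 of 12 genes were lower in late iron: Idh3a (-0.31, adjusted p = 0.00329), Dlst (-0.23), Dld (-0.23) and Suclg2 (-0.22). Fatty acid oxidation had 5 of 13 lower, Acadl, a dehydrogenase of long-chain fats, with the smallest p (-0.21, adjusted p = 0.0100). On day 3 its gene Hadh was called higher against sham (0.27, adjusted p = 0.0372), 1 of 13. The share of subunits called in this contrast was 2.56%, below the 22% of all genes, and no list was tested against another.

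Among 17 regulators of mitochondrial genes was Ppargc1b, a coactivator of nuclear respiratory factors and estrogen-related receptors. It was lower on day 7 (-0.84, SE 0.146, adjusted p = 0.0105), where 2.67% of all genes were lower. In late against early iron it was also lower (-0.55, SE 0.0924, adjusted p = 0.00186), where 11.7% of all genes were. Gabpb1, a subunit of the ETS factor GABP that binds many of these promoters, was higher in late iron by 0.29 (adjusted p = 0.0101). There 10.3% of all genes were higher. Both passed the F test among iron days, as did Nrf1 and Tfb2m (adjusted p = 0.0328 and 0.0480), where 19.2% of all genes did. Of 11 carriers and neighbours outside the rule, Slc25a5, which exchanges ADP for ATP, was lower on day 28 (-0.30, adjusted p = 0.0267). On that day 0.582% of all genes were lower. Etfdh, which feeds electrons from fat oxidation into ubiquinone, was lower in late iron (-0.21, adjusted p = 0.0132).

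The promoters of the subunits hold several short motifs in larger shares than the windows of other genes. RefSeq windows of 300 bases (250 before and 50 after the start site, GRCm38.p6) were found for 67 of the 82 genes, 72 windows in all, and both strands were searched. The NRF1 core GCGCANGCG was present in 27.8% of them, against 13.4% of the windows of all genes tested and 6.25% of all windows. The ETS letters CCGGAAG had 23.6%, 17.1% and 8.86%, the YY1 letters AAGATGGC 13.9%, 4.43% and 2.75%, and the letters AAGGTCA of estrogen-related receptors 9.72%, 3.14% and 4.72%. At least 1 of the first 3 was in 54.2% of the subunit windows and in 30.4% of those of genes tested. In complex IV the NRF1 letters were in 1 of 13 windows and the YY1 letters in 0, and in complex V the NRF1 letters were in 7 of 18.

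The YY1 letters were placed in nearly the same position in many genes. Of 10 matches, 8 lay on the gene's strand 23 to 39 bases after the start site, and 7 of the 10 genes belong to complex I. The stretches around 5 of them show it, with the match in capitals, and include both of the called subunits of complex I.
Ndufa3 at chr7:3617387-3617410, plus strand: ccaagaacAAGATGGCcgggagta
Ndufs6 at chr13:73328434-73328457, minus strand: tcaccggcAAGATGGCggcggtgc
Ndufa9 at chr6:126849100-126849123, minus strand: tgtgggagAAGATGGCggccgccg
Ndufs7 at chr10:80249465-80249488, plus strand: ccgaggccAAGATGGCggcgctgg
Ndufc1 at chr3:51408918-51408941, minus strand: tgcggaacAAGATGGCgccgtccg
The letters contain ATG, and whether these are start codons was not tested. The 10 genes with the match had a median difference of 0.17 on day 3 and 0.15 on day 14, and the 56 tested genes whose windows lacked it 0.082 and 0.11. In late against early iron the medians were -0.073 and -0.034. For the NRF1 letters (19 genes with, 47 without) the medians were 0.11 and 0.084 on day 3 and 0.12 and 0.10 on day 14. The 7 genes with the letters of estrogen-related receptors, Atp5l and Sdhd among them, had 0.19 on both days, and all 7 were above 0 on days 1, 3, 7 and 14 and lower in the sham day 3 array than in the sham day 1 arrays (median -0.35). These splits by motif were made after the values were seen and carry no test.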

How the data were processed

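Signals of 34760 probe sets in 15 samples were read from the deposited table, whose values are log2 signals normalized by the authors, from 0.234 to 13.01. MAS5 is named in the submitters' processing notes; which version and for which step is not given in the sources used here. Probe sets with 1 symbol (21640) gave 19937 genes, each by its brightest probe set, and the 9969 at or above the 50th percentile of mean signal (5.5125) were tested. Probe sets named for several genes were left out.

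Genes were fitted in limma 3.58.1 (R 4.3.3) with 6 group means, 9 residual degrees of freedom and an intensity trend. Benjamini-Hochberg adjustment covered the 9969 genes, and calls needed an adjusted p under 0.05. The fit was tested on simulated data. Named were, in each comparison, the subunits past the threshold (up to 8 in each direction), or, if under 4 passed, the 4 lowest p-values, 8 in the F test, the isoforms, the core and subunits below the filter. The probe sets of Atp5g1 and Atp5l, the promoters of Ndufa3 and Sdha and the YY1 windows were picked after values were seen. So were the genes named for differences over 0.5. The members and lists were chosen with earlier results of these data known. Promoter sequences are RefSeq's (GRCm38.p6). Alternatives covered scaling, filter, trend, array weights, replicate block, control arrays and leaving out each array. The number of arrays limits the precision. Proton-exposed samples were not analysed here. Python 3.11.15 with pandas 2.3.3, numpy 2.4.6 and matplotlib 3.10.9 made the tables and plots.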

Additional observations from a re-analysis of the deposited data

Results flagged for a closer look

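Uqcrc2 and Sdha differed between the late and the early iron days, by -0.17 and -0.13 on the log2 scale. Ndufa3 differed among the 5 iron days (F test in limma, adjusted p = 0.0354). These 3 are listed because the same genes differed between time points of the iron-exposed groups. In each the 2 day 7 arrays also differed between themselves: 11.51 and 11.72 for Uqcrc2, 11.20 and 11.36 for Sdha, and 11.11 and 11.41 for Ndufa3.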

How the results depend on the processing

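No difference of a subunit named for passing the threshold or for its p changed sign under any alternative run. Other differences of single subunits, such as those of the isoforms, were not followed in this way. Day 3 (3 subunits called) gave 0 with median centring, with the sham day 1 arrays as control and with the replicate block, 5 with only the arrays compared and 6 with array weights. Day 7 (0) gave 1 with the sham day 3 array as control. Day 14 (1) gave 2 with quantile normalization, 5 with the sham day 3 array as control, and 0 with median centring, no filter, no intensity trend, array weights, the replicate block, only the arrays compared or the sham day 1 arrays as control. Day 28 (0) gave 1 with median centring or the sham day 1 arrays as control and 12 with array weights. All iron days (0) gave 1 with array weights. Late against early iron (2) gave 5 with quantile normalization, 4 with median centring, 1 with no filter or no intensity trend and 9 with array weights. The F test (1) gave 2 with quantile normalization or only the arrays compared, 0 with no filter, no intensity trend or the replicate block, and 23 with array weights. Leaving out 1 array at a time gave 0 to 5 subunits on day 3, 0 to 1 on day 7, 0 to 3 on day 14, 0 to 1 on day 28, 0 to 2 over all iron days, 1 to 13 in late against early iron and 0 to 8 in the F test, and 0 on day 1. The cause of these changes was not tested. The share of all genes called under each alternative is not given beside these counts or those with an array left out above. Whether the counts are particular to the subunits was therefore not tested. Residuals of arrays with the same replicate number correlated at -0.39 to 0.57 (31 pairs, median 0.062, 11 above 0.1). For different numbers the range was -0.57 to 0.49 (50 pairs, median -0.029, 14 above 0.1). In groups of 2 arrays the residuals mirror each other, so these values cannot decide whether replicate numbers pair the samples. The block leaves the sham day 3 array, which has no number in its label, without weight in comparisons with sham. With median centring the median of all genes moved from 0.019 to -0.094 on day 28 and from 0.037 to -0.039 on day 3. With the sham day 3 array alone as control the median over the subunits was 0.20 on day 3, 0.14 on day 7, 0.21 on day 14 and 0.16 over all iron days.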
